A study of Mus musculus with 14 samples.

Results

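The genes described here are Angptl7, Dlk1, Dab2, Rbpjl, Adamtsl3 and Rab17, 6 of the 24592 genes tested in mouse hair follicle stem cells. They were selected on gene sums of estimated counts, which were higher in the postnatal day 20 (P20) libraries with little Mki67, a transcript of dividing cells, than in the P20 libraries with much of it. Their difference between those P20 libraries is therefore a description without a test. The libraries of postnatal day 18 (P18) were not used to choose them and serve as a second set with little Mki67. All 6 passed the filter on low counts.

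RNA was sequenced from sorted bulge cells of back skin at P18 and P20, in libraries labelled Irx5 knockout (Irx5KO) or wild type (WT). There were 3 libraries of each genotype at P18 and 4 of each at P20. The labels give no strain, sex, allele, treatment or promoter of a Cre, and do not say which libraries came from separate animals, so the p-values measure the spread between libraries, which may be technical. Each age was split over 2 dates as coded in the deposited data, and what the code dates is not stated. Irx5KO 1 and WT 1 and 2 were of the earlier P18 date, and Irx5KO 2 and 3 and WT 3 of the later. For both genotypes at P20, numbers 1 and 2 belong to the later date, numbers 3 and 4 to the earlier. The data of P18 WT 3 also carry the word het, against its title, which was used.

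The bulge is the niche in the hair follicle where stem cells rest between rounds of hair growth and from which dividing cells arise when growth starts. Angptl7 is a secreted angiopoietin-like protein that resting bulge cells are known to release. Dlk1, an imprinted gene, encodes a membrane protein related to the Delta ligands of the Notch receptors, and Rbpjl a paralog of RBPJ, the DNA-binding protein of Notch signalling. Adamtsl3 is a secreted matrix glycoprotein of the ADAMTS-like family, which lacks protease activity. Dab2 is an adaptor that carries receptors into clathrin-coated pits, and Rab17 is a small GTPase of recycling and apical endosomes in epithelial cells. In bulk RNA, fewer cells that express a gene and less of its RNA per cell cannot be told apart.

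The promoters of the members are shown first, since genes that differ together between the same libraries invite a look at their start regions. All 6 had at least 1 promoter of 300 bases in the RefSeq table for GRCm38.p6, from 250 bases before the start to 50 after it. Each was searched on both strands for 6 motifs. The core of the RBPJ site was spelled TGGGAA and the cell cycle homology region TTTGAA. The E2F motif was spelled TTTCCCGC and the forkhead motif GTAAACA. The AP-1 motif was spelled TGACTCA and the TATA box TATAAA. The E2F motif holds most letters of the RBPJ core, and no match found here overlapped another. The sequences shown are those of Angptl7 and Dlk1, the closest pair of members by pattern, and of Rbpjl and Adamtsl3, which hold the RBPJ core. Capitals mark a motif on either strand.
Angptl7 promoter, chr4:148500413-148500712, minus strand: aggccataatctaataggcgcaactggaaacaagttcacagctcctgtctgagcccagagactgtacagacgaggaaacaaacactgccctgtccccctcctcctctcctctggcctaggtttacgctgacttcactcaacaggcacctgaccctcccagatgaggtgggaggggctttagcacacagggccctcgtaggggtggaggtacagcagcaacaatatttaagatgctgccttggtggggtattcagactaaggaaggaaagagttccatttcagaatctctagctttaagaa
Dlk1 promoter, chr12:109452573-109452872, plus strand: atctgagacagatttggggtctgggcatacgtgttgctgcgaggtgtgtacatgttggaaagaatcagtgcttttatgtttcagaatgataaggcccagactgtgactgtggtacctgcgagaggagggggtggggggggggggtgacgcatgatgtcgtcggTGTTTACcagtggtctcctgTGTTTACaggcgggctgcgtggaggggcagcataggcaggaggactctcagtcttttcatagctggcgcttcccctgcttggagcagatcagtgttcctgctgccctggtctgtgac
Rbpjl promoter, chr2:164402944-164403243, plus strand: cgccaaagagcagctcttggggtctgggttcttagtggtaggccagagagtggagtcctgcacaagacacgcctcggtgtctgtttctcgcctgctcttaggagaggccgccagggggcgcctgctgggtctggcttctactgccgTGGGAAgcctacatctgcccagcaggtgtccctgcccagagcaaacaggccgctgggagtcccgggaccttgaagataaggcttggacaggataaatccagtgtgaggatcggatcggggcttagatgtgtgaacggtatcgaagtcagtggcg
Adamtsl3 promoter, chr7:82335444-82335743, plus strand: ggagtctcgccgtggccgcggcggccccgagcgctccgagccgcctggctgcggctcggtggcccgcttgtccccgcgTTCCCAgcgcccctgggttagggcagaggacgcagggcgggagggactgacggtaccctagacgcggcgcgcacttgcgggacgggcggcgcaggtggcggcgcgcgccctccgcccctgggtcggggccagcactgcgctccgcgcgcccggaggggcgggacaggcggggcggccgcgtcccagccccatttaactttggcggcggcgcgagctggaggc
The Dlk1 window held the forkhead letters at 2 places, -87 and -67 bases from its start, as TGTTTAC. That start held only 1.17% of the Dlk1 counts, and 84.9% came from starts farther downstream, whose windows were not analysed here. That motif was in 3.66% of 32544 promoters of the same length. The RBPJ core was in the Rbpjl promoter at -104, in that of Adamtsl3 at -172 and in the more upstream of the 2 Dab2 promoters at -224. It was in 25.4% of all promoters. The same Dab2 promoter held TTTGAA at -206, which 17.8% of promoters held. None of the 6 motifs was in the windows of Angptl7, Rab17 or the more downstream Dab2 promoter, and a match is a run of letters, not a bound site. The Rab17 window covers the start at 90967667, and starts with 49.7% of its counts had no window. The more upstream Dab2 starts held 5.89% of the Dab2 counts, and a start with 34.7% had no window. The shares of promoters with the other motifs were 1.08% for E2F, 5.19% for AP-1 and 13.6% for the TATA box. The Adamtsl3 window stood out by composition, with 78.7% G and C and 46 CpG pairs, against medians of 53.0% and 7.0 over all promoters.

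In mm10, Angptl7 (ENSMUSG00000028989.3) spans chr4:148495183-148500460 on the minus strand. Dlk1 (ENSMUSG00000040856.17) spans chr12:109452823-109463336 on the plus strand. Dab2 (ENSMUSG00000022150.16) spans chr15:6299788-6440712, Rbpjl (ENSMUSG00000017007.9) chr2:164403141-164415448 and Adamtsl3 (ENSMUSG00000070469.12) chr7:82335694-82614450, all on the plus strand. Rab17 (ENSMUSG00000026304.13) spans chr1:90958133-90969661 on the minus strand. No pair of members lay on the same chromosome.

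The libraries held 13618367 to 70083873 estimated counts. Levels are counts relative to a common library total with TMM scaling (CPM), and comparisons between genes use TPM, which also accounts for length. Mki67 was at 15.6 to 30.7 CPM in the 6 P18 libraries. At P20 it was at 19.4 and 14.9 CPM in Irx5KO 1 and 2 and at 12.3 and 4.30 in WT 3 and 4, called the low-Mki67 libraries. It was at 503 and 180 CPM in WT 1 and 2 and at 1352 and 1515 in Irx5KO 3 and 4, the high-Mki67 libraries. The 2 P20 dates therefore ran in opposite directions between the labelled genotypes. Irx5 itself, the targeted gene, was at 53.3, 72.4 and 81.9 CPM in P18 Irx5KO 1 to 3 and at 80.0, 63.9 and 136 in WT 1 to 3, which overlap. It was at 31.5 and 18.7 CPM in P20 Irx5KO 1 and 2 but at 195 and 182 in the libraries labelled Irx5KO 3 and 4, against 39.0 and 43.0 in those labelled WT 3 and 4. Irx5 thus goes against the labels on the earlier P20 date, and genotypes named here are those of the labels. Cd34, a surface marker of bulge stem cells that was used in the sort, was at 191 to 1052 CPM over the 14 libraries, and the bulge markers Nfatc1 and Lgr5 at 177 to 949 and 157 to 448.

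Angptl7 was the most abundant member and the only one of the 6 whose low-Mki67 P20 libraries all exceeded every P18 library. It was at 514 and 1351 CPM in P20 Irx5KO 1 and 2 and at 1494 and 497 in WT 3 and 4. In the high-Mki67 libraries it was at 113 and 129 CPM in WT 1 and 2 and at 67.6 and 48.2 in Irx5KO 3 and 4. At P18 it was at 426, 219 and 200 CPM in Irx5KO 1 to 3 and at 215, 123 and 340 in WT 1 to 3. The low-Mki67 and high-Mki67 P20 libraries did not overlap, and P18 lay between them apart from WT 2, which was below P20 WT 2. In TPM, P18 WT 2 was above P20 WT 2, at 125 against 85.6. Within the high-Mki67 libraries the order of Angptl7 was the reverse of that of Mki67, as a description of 4 libraries. Its means were 964 ± 533 and 89.3 ± 37.8 CPM (SD, n = 4 each) and 254 ± 109 CPM at P18 (SD, n = 6), and the low-Mki67 libraries themselves spanned 3.01-fold.

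Dlk1 had the P20 pattern of Angptl7 at a lower level, but its P18 libraries reached as high as its low-Mki67 ones. It was at 29.9 and 14.5 CPM in P20 Irx5KO 1 and 2 and at 38.9 and 37.5 in WT 3 and 4. It was at 4.09 and 3.83 CPM in WT 1 and 2 and at 1.48 and 2.59 in Irx5KO 3 and 4. Its P18 levels were 25.7, 15.4 and 11.1 CPM in Irx5KO 1 to 3 and 12.4, 10.6 and 49.9 in WT 1 to 3. All 4 low-Mki67 and all 6 P18 libraries were above all 4 high-Mki67 ones, and P18 WT 3 was the highest of the 14. On average it was at 30.2 ± 11.2 and 3.00 ± 1.20 CPM at P20 (SD, n = 4 each) and 20.8 ± 15.3 CPM at P18 (SD, n = 6).

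Among the members with counts in every library, Rbpjl had the widest range, 103-fold between its highest and lowest library. It was at 40.7 and 50.0 CPM in P20 Irx5KO 1 and 2 but only at 7.42 and 12.8 in WT 3 and 4. It was at 6.50 and 7.63 CPM in WT 1 and 2 and at 1.71 and 4.13 in Irx5KO 3 and 4. At P18 it was at 11.6, 12.8 and 9.05 CPM in Irx5KO 1, WT 1 and WT 2 of the earlier date and at 1.80, 0.484 and 1.37 in WT 3, Irx5KO 2 and Irx5KO 3 of the later one. P20 WT 3 overlapped the high-Mki67 libraries, and the 3 later P18 libraries lay below the high-Mki67 P20 WT libraries although their Mki67 was low. The name resting-state gene was therefore not borne out for Rbpjl at the later P18 date. All 3 earlier P18 libraries exceeded all 3 later ones, as did 8.64% of all genes tested, and for no member did all later ones exceed all earlier ones, against 9.03%. The Y-linked Ddx3y was at 0.550 to 0.591 CPM at raw library sizes on the earlier P18 date and at 96.0 to 129 on the later one, so date and sex cannot be told apart there. At P20, Irx5KO 1 and 2 shared a date and differed in Ddx3y (0.338 and 64.1 CPM), with 40.7 and 50.0 CPM of Rbpjl.

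Adamtsl3 and Rab17 were low in every library and had 0 counts in the 2 libraries with the most Mki67. Adamtsl3 was at 6.44 and 8.95 CPM in P20 Irx5KO 1 and 2, at 9.06 and 13.6 in WT 3 and 4, and at 0.776 and 4.33 in WT 1 and 2. At P18 it was at 7.50, 7.16 and 1.61 CPM in Irx5KO 1 to 3 and at 6.94, 8.06 and 2.68 in WT 1 to 3. Its low-Mki67 P20 libraries were all above the high-Mki67 ones, but P18 Irx5KO 3 and WT 3 were below P20 WT 2. Rab17 was at 4.02 and 9.56 CPM in P20 Irx5KO 1 and 2, at 8.98 and 5.82 in WT 3 and 4, and at 0.806 and 1.93 in WT 1 and 2. At P18 it was at 11.5, 2.61 and 8.20 CPM in Irx5KO 1 to 3 and at 7.22, 4.52 and 11.9 in WT 1 to 3. All low-Mki67 and all P18 libraries were above the high-Mki67 ones for Rab17 in CPM. In TPM this did not hold, since high-Mki67 P20 WT 2 (3.5) was above low-Mki67 P20 Irx5KO 1 (2.89) and P18 Irx5KO 2 (2.86).

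Against a floor of 3 counts over P20 Irx5KO 3 and 4 together, 0.0986 CPM, the pooled level of P20 WT 3 and 4 was at least 108-fold higher for Adamtsl3 and at least 79.5-fold higher for Rab17. These bounds cover counting error only. P20 Irx5KO 3 and 4 had a count in 61.9% and 60.5% of the tested genes, against 72.9% to 99.0% in the other libraries. Of 4500 genes with a mean of 3 to 12 CPM in the other 12 libraries, 7.44% were at 0 in both, against 0.0222% to 0.733% in pairs of other libraries. Adamtsl3 and Rab17 each had a mean of 6.42 CPM there, and the part of this lower detection in their zeros was not tested.

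Dab2 was lowest in the high-Mki67 libraries labelled WT, not in those with the most Mki67. It was at 50.6 and 36.1 CPM in P20 Irx5KO 1 and 2 and at 74.1 and 98.0 in WT 3 and 4. It was at 11.1 and 7.85 CPM in WT 1 and 2 and at 40.2 and 29.1 in Irx5KO 3 and 4. Its P18 levels were 68.4, 46.4 and 51.0 CPM in Irx5KO 1 to 3 and 53.3, 36.3 and 84.9 in WT 1 to 3. Irx5KO 3, with 1352 CPM of Mki67, had more Dab2 than Irx5KO 2, with 14.9 CPM of Mki67, so the low-Mki67 and high-Mki67 libraries overlapped in CPM. In TPM they did not, at 38.8 to 76.5 in the low-Mki67 and 8.94 to 20.4 in the high-Mki67 libraries. On average Dab2 was at 64.7 ± 27.2 and 22.1 ± 15.3 CPM (SD, n = 4 each) and 56.7 ± 17.3 CPM at P18 (SD, n = 6).

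**Figure D1:**
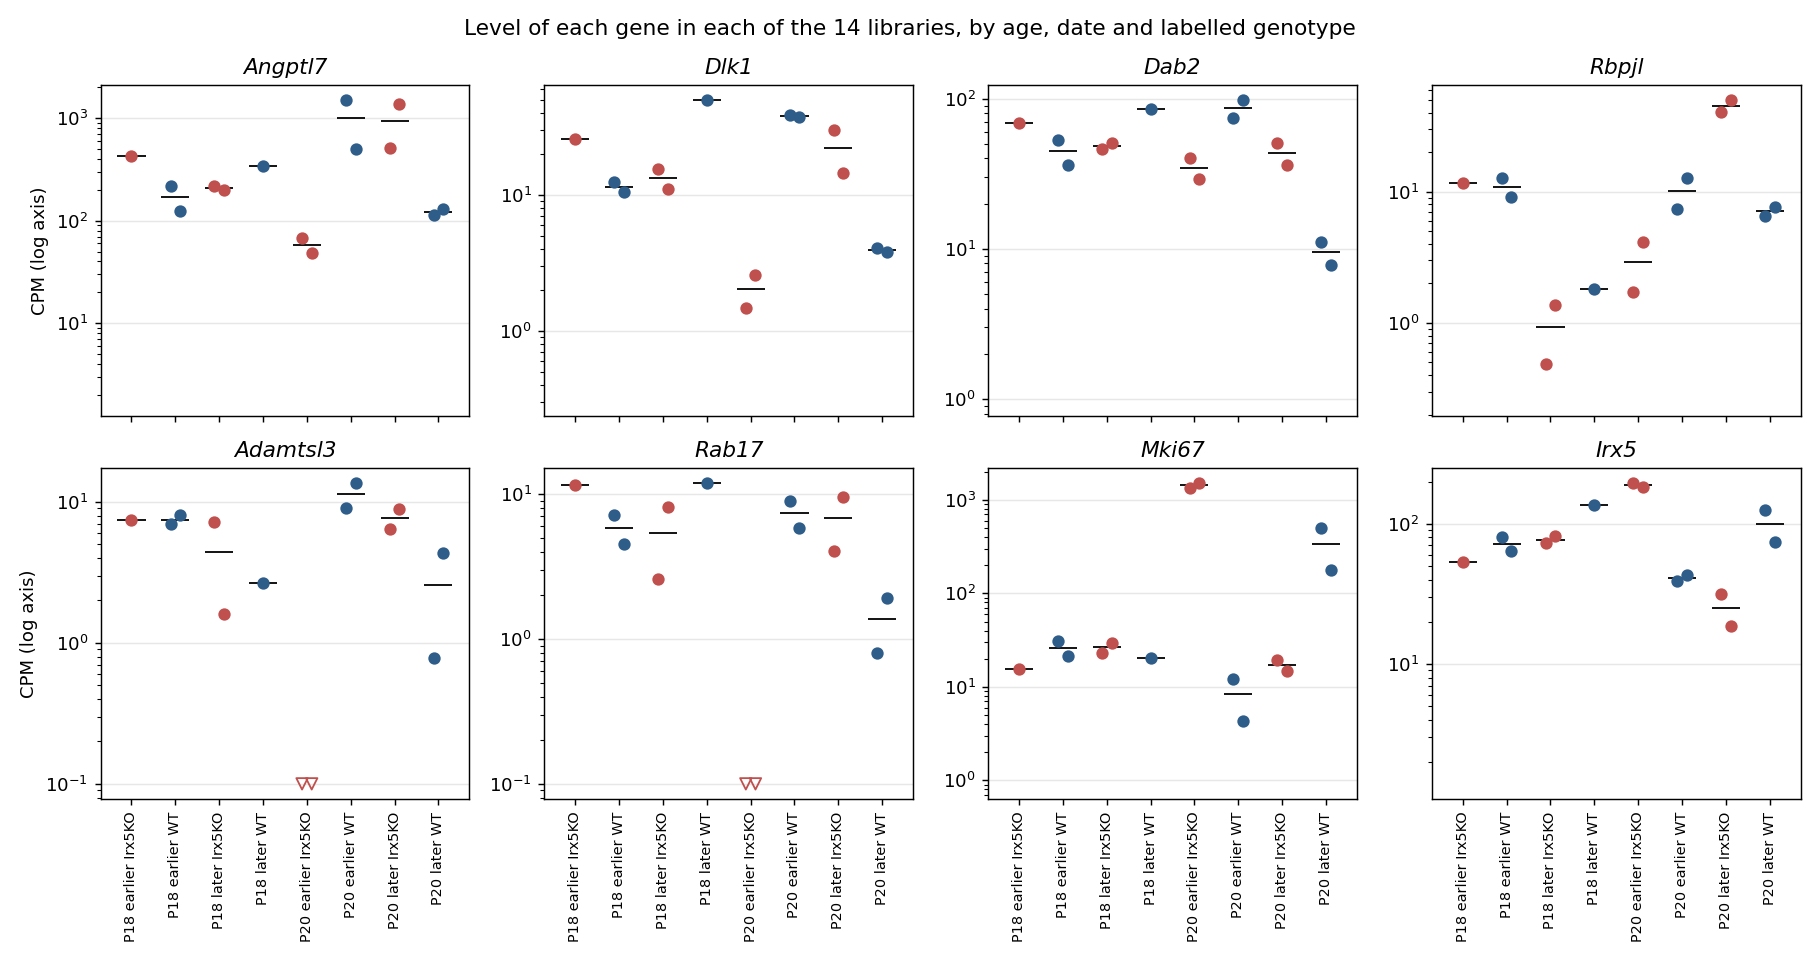
Level in CPM (log axis) of the 6 genes, Mki67 and Irx5 in each of the 14 libraries, by age, date and labelled genotype (red Irx5KO, blue WT). Each point is a library, lines are means, and open triangles are libraries with 0 counts, drawn at the foot of the axis. Adamtsl3 and Rab17 are at 0 in the earlier P20 Irx5KO libraries, where Mki67 is at 1352 and 1515 CPM.

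Over the members, 4 of 6 (Angptl7, Dlk1, Adamtsl3 and Rab17) had all low-Mki67 P20 libraries above all high-Mki67 ones, where 3.10% of all genes did. The rule chose on that difference, so nothing is read from this count. All 6 P18 libraries were above the high-Mki67 libraries for 2 of 6 (Dlk1 and Rab17), against 3.05% of all genes, and this count shares the high-Mki67 libraries with the rule. The low-Mki67 P20 libraries were above all P18 libraries for 1 of 6 (Angptl7), against 4.71%. These counts and shares are in CPM. In TPM, Rab17 overlapped in both comparisons with the high-Mki67 libraries and Dab2 in neither, and Angptl7 at P18 was also above those libraries. Shares of all genes were not counted in TPM.

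Per length, Angptl7 led the members at every age, with 147 ± 40.3 TPM at P18 (SD, n = 6). Dab2 followed with 58.9 ± 15.0 TPM, Dlk1 with 24.9 ± 16.8, Rab17 with 7.84 ± 3.05, Rbpjl with 3.30 ± 3.18 and Adamtsl3 with 1.81 ± 1.12 TPM. Angptl7 (99.3 TPM at the lowest) did not overlap Dab2 (86.5 at the highest), while Dab2 and Dlk1 overlapped through P18 WT 3, Dlk1 overlapped Rab17 (10.5 at the lowest and 11.3 at the highest), and Rbpjl overlapped both of its neighbours. In the low-Mki67 P20 libraries Angptl7 was at 469 ± 259 TPM, Dab2 at 52.8 ± 16.8, Dlk1 at 29.0 (15.1 to 38.5), Rbpjl at 10.3 ± 8.23, Rab17 at 5.68 ± 2.19 and Adamtsl3 at 2.23 ± 0.427 TPM (SD, n = 4). Rbpjl and Rab17 thus stood in the opposite order at the 2 ages, with ranges that overlapped at both.

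**Figure D2:**
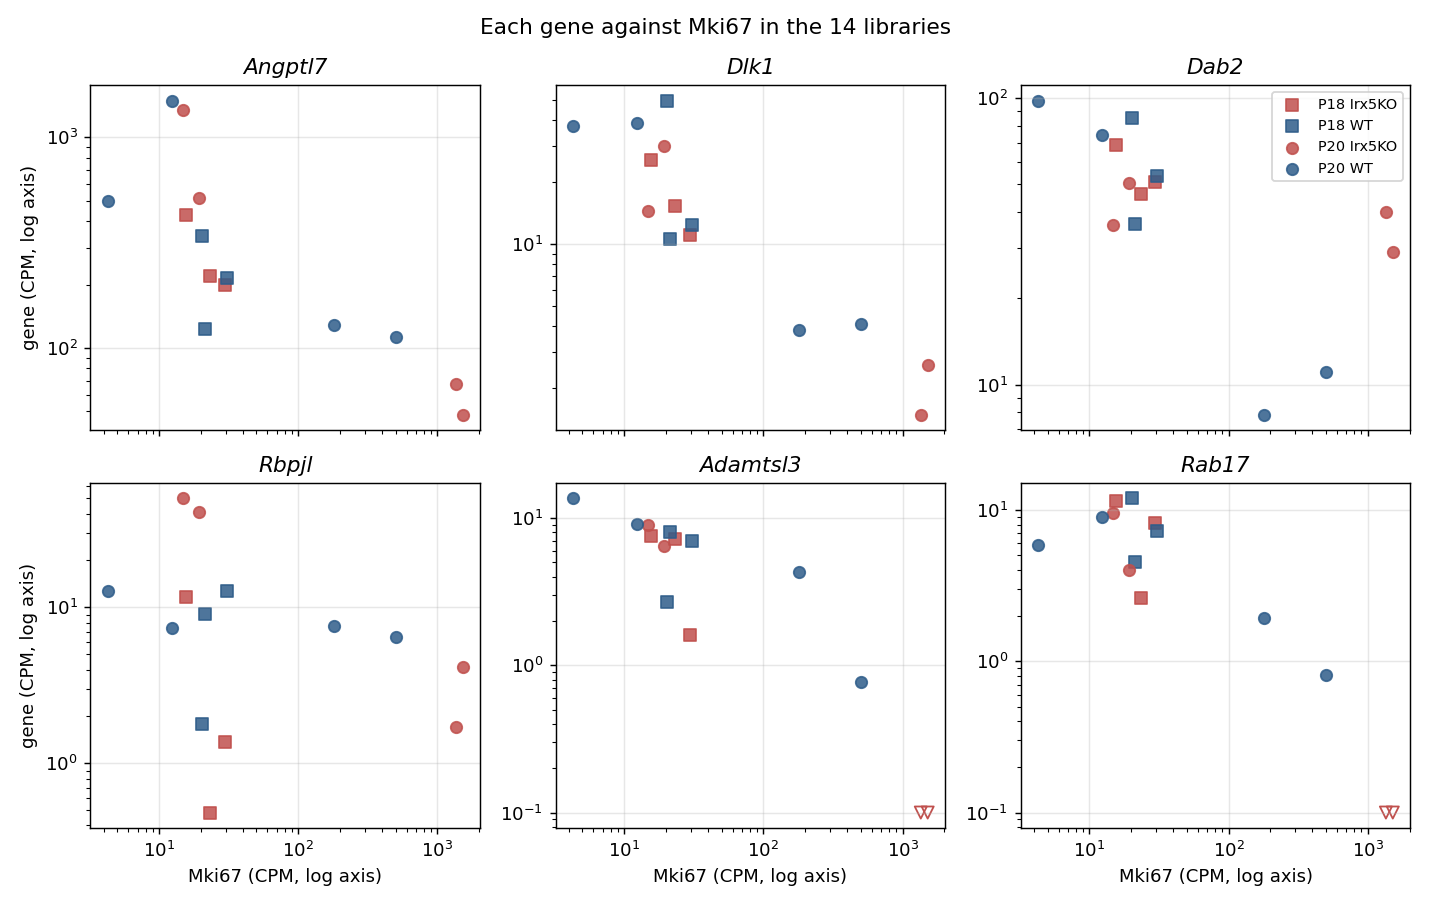
Level of each gene against Mki67 (both in CPM, log axes) in the 14 libraries, squares for P18 and circles for P20, red for Irx5KO and blue for WT, with open triangles for 0 counts. The 10 libraries with 4.30 to 30.7 CPM of Mki67 hold a range of levels for every gene, and Dab2 is higher in the pair at 1352 and 1515 CPM of Mki67 than in the pair at 180 and 503.

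Whether the members followed Mki67 could be examined without the libraries of the rule in the 6 P18 libraries. Pearson's r of log2 CPM was -0.54 for Angptl7, -0.60 for Dlk1, -0.37 for Dab2, -0.20 for Rbpjl, -0.36 for Adamtsl3 and -0.26 for Rab17, and Spearman's rho -0.60, -0.54, -0.37, -0.03, -0.43 and -0.49. None of the 6 passed (two-sided exact permutation tests, adjusted p = 0.688 for each r and 0.597 to 1.0 for rho). Without WT 1 and Irx5KO 1, the libraries farthest from the median of Mki67, r was -0.15, -0.58, -0.23, -0.35, -0.57 and 0.01 in the same order. Within each date there were only 3 libraries, where r was -0.51 and -0.87 for Angptl7, -0.74 and -0.89 for Dlk1 and 0.34 and -0.06 for Rbpjl on the earlier and later date. Mki67 itself spanned only 15.6 to 30.7 CPM at P18, and at raw library sizes r was above 0 for Dab2, Rbpjl and Adamtsl3. No correlation over all 14 libraries is given, because they fall into separate clusters by Mki67.

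The low-Mki67 P20 libraries were also set against P18 of the same labelled genotype. The log2 difference of P20 Irx5KO 1 and 2 from P18 Irx5KO was 1.64 ± 0.51 (SE) for Angptl7 and 3.79 ± 0.57 for Rbpjl. That of P20 WT 3 and 4 from P18 WT was 2.05 ± 0.52 for Angptl7 and 1.18 ± 0.52 for Rbpjl, whose P20 WT 3 and 4 (7.42 and 12.8 CPM) overlapped P18 WT 1 and 2 (12.8 and 9.05 CPM). For the other members these 2 differences were 0.27 ± 0.40 and 0.67 ± 0.40 for Dlk1, -0.41 ± 0.36 and 0.48 ± 0.36 for Dab2, 0.42 ± 0.79 and 1.33 ± 0.79 for Adamtsl3 and -0.22 ± 0.74 and -0.17 ± 0.74 for Rab17. These values share libraries with the rule and carry no test, and age and date cannot be told apart. The difference of P20 WT 1 and 2 from P18 WT was -2.60 ± 0.45 for Dlk1, -2.70 ± 0.40 for Dab2, -2.61 ± 0.81 for Rab17, -0.99 ± 0.52 for Angptl7, -0.81 ± 0.81 for Adamtsl3 and 0.67 ± 0.51 for Rbpjl.

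The comparison of Irx5KO with WT at P18 took its differences from libraries that the rule did not use, and none of the 6 members passed it. Its spread was estimated over all 14 libraries, and with the P18 libraries alone the adjusted p was 0.77 to 0.95. The log2 difference (Irx5KO minus WT, mean of the 2 dates) was 0.32 ± 0.47 (SE) for Angptl7, with a 95% interval of -0.66 to 1.30. It was -0.38 ± 0.38 (-1.16 to 0.40) for Dlk1, -0.10 ± 0.33 (-0.79 to 0.60) for Dab2 and -0.44 ± 0.48 (-1.44 to 0.56) for Rbpjl. It was 0.35 ± 0.73 (-1.18 to 1.89) for Adamtsl3 and -0.08 ± 0.68 (-1.50 to 1.34) for Rab17. With edgeR's quasi-likelihood test the adjusted p ranged from 0.72 to 1.0, and 0 of 6 had an unadjusted p under 0.05. Over all genes 2 passed, both with a fitted difference below 0, which is 0.00813% of 24592, and DESeq2 called 33 and voom 0, with no member among them. The 2 genes were Dscaml1, at 27 to 33 counts in Irx5KO and 145 to 273 in WT, and Gm8226. Gm8226 had 1 count in Irx5KO 1 but 5764 and 5600 in Irx5KO 2 and 3, against 1105 to 4002 in WT. The intervals leave room for differences of more than 1 log2 unit in at least 1 direction for 5 members, all but Dab2. Genes at 8 CPM or more had a median difference of 0.35 under this scaling, and relative to it the members lay between -0.79 (Rbpjl) and 0.00 (Adamtsl3).

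At P18 the difference between labelled genotypes had opposite signs on the 2 dates for Angptl7, Dlk1, Dab2, Rab17 and, near 0 on the earlier date, Rbpjl. It was 1.33 ± 0.64 (SE) on the earlier and -0.70 ± 0.65 on the later date for Angptl7, 1.16 ± 0.51 and -1.91 ± 0.51 for Dlk1, 0.61 ± 0.46 and -0.80 ± 0.46 for Dab2 and 0.97 ± 0.93 and -1.13 ± 0.93 for Rab17. It was 0.08 ± 0.67 and -0.95 ± 0.67 for Rbpjl and 0.00 ± 1.03 and 0.71 ± 1.07 for Adamtsl3. Each date rests on a single library of 1 genotype, Irx5KO 1 on the earlier and WT 3 on the later date. The share of all genes with opposite signs on the 2 dates was not counted. The difference between the dates, added after the values by library were seen, was 3.07 ± 0.72 for Dlk1 (unadjusted p = 0.00037, edgeR adjusted p = 0.87). Unadjusted p was under 0.05 for 3 of 6 members, against 746 of all 24592 genes, which is a smaller share. After adjustment 0 of 6 passed, where 0.00407% of all genes did. Mki67 was lowest at P18 in the same libraries, 15.6 CPM in Irx5KO 1 and 20.2 in WT 3, and its part in these values was not tested.

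At P20 the difference between labelled genotypes also turned with the date, and the rule used it. On the later date Irx5KO minus WT was 2.95 ± 0.58 (SE) for Angptl7, 2.49 ± 0.46 for Dlk1, 2.19 ± 0.40 for Dab2, 2.68 ± 0.58 for Rbpjl, 1.59 ± 0.87 for Adamtsl3 and 2.31 ± 0.83 for Rab17. On the earlier date it was -4.10 ± 0.62 for Angptl7, -4.22 ± 0.50 for Dlk1, -1.31 ± 0.39 for Dab2 and -1.78 ± 0.58 for Rbpjl, with the bounds above for the other two. In size, the fitted differences of Angptl7 and Dlk1 were larger on the earlier date and those of Dab2 and Rbpjl on the later one. The gap in Mki67 was wider on the earlier date. Neither these orders nor a relation to that gap was tested.

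**Figure D3:**
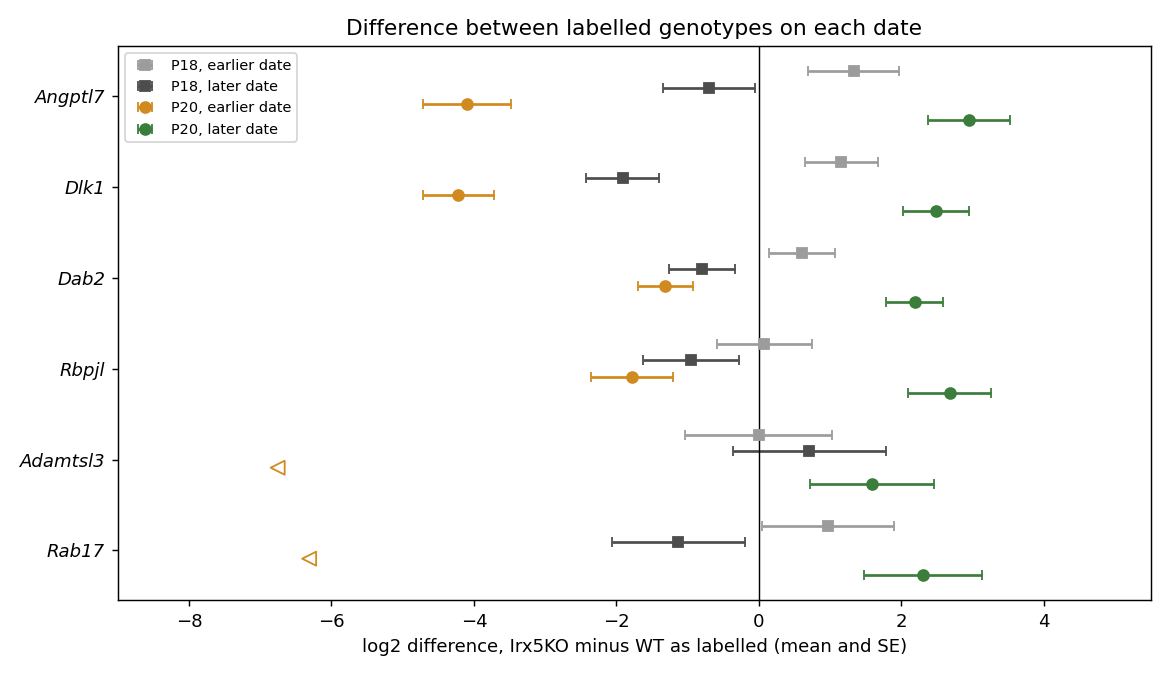
Log2 difference between libraries labelled Irx5KO and WT on each date (points with SE) for the 6 genes. Open arrowheads are bounds for genes with 0 counts in P20 Irx5KO 3 and 4. All 6 genes lie right of 0 on the later and left of 0 on the earlier P20 date.

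The pattern of each member over the 14 libraries was compared with 13295 protein-coding genes by the root mean square difference of centred log2 CPM, in which 0 is the same pattern. Angptl7 was closest to Klf15, a Krüppel-like transcription factor (0.47), Tmem184a (0.47) and Ptpru, a receptor tyrosine phosphatase (0.53), against a median of 1.52. Dlk1 was closest to L1cam (0.65), Tcea3 (0.67) and the chemokine gene Ccl27a (0.69), with a median of 1.62. Dab2 was closest to Pir (0.45), the receptor tyrosine kinase gene Tyro3 (0.46) and Tatdn3 (0.52), with a median of 1.13. For Rbpjl the nearest genes stood farther off, namely Rbm38 (0.84), Pkd1l3 (1.00) and Fxyd4 (1.03), with a median of 1.96. The genes nearest to Adamtsl3 were Fam129a (0.79), Peli3 (0.84) and Nxpe3 (0.84), and those nearest to Rab17 were Car11 (0.77), Wnt9a (0.78) and Ecscr (0.82), with medians of 2.88 and 2.84. These 6 genes were each at 0 CPM in their lowest library, like the 2 members. Among the members, Angptl7 and Dlk1 were the closest pair (0.91) and Rbpjl and Rab17 the farthest apart (2.83).

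Neighbouring genes were read from the annotation of the same build. Angptl7 lies inside the gene of the kinase Mtor, on the opposite strand, with 0 shared exon bases. Mtor was at 90.5 to 103 CPM in the low-Mki67 and at 48.7 to 104 CPM in the high-Mki67 libraries, a log2 difference of 0.24 ± 0.29 (SE, edgeR adjusted p = 0.87). Rbpjl shares 149 of its 5732 exon bases with Matn4, a matrix protein gene on the opposite strand, and with no strand setting stated reads there cannot be told apart. Matn4 was at 5.19 to 20.9 CPM in the low-Mki67 and at 0.223 to 4.95 CPM in the high-Mki67 libraries (2.16 ± 0.69, adjusted p = 0.094). C9, the complement gene 4615 bases after Dab2, was at 0.846 to 5.97 and at 0.343 to 0.767 CPM (2.04 ± 0.74, adjusted p = 0.16). Dab2 shares 211 of its 7342 exon bases with the pseudogene Gm18888, which was at 0 CPM in all P20 libraries. Next to Dlk1, the imprinted Rtl1 was at 0 to 1.75 and at 0 to 6.79 CPM, and Begain at 22.4 to 27.3 and at 11.7 to 23.0 CPM (0.54 ± 0.30, adjusted p = 0.46).

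Transcript shares within a gene, which kallisto estimates and which are uncertain at low counts, give the annotated starts to which counts were assigned. Angptl7 has 1 annotated transcript. The main Dlk1 starts lay between 109453455 and 109453660. Their share was 82.9% at P18, 89.0% in the low-Mki67 and 80.6% in the high-Mki67 libraries, where it rested on 324 counts. For Dab2, 43.8% came from starts between 6386598 and 6386779, near the more downstream promoter, and 5.89% from those at 6299788 to 6299868. Another 34.7% came from a transcript of 2034 bases that starts at 6422240. All 3 annotated Rbpjl transcripts start between 164403141 and 164403209, which fixes the start of all its counts. A transcript with a retained intron held 35.0% of them, with a share of 0 to 94.9% between libraries. Rab17 was split between the start at 90969548 to 90969661 (49.7%) and that at 90967617 to 90967667 (50.3%). The latter held 73.2% in the low-Mki67 P20 libraries and 41.9% at P18, but the share of the main transcript of the former, Rab17-201, ran from 0 to 92.2% between libraries.

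**Figure D4:**
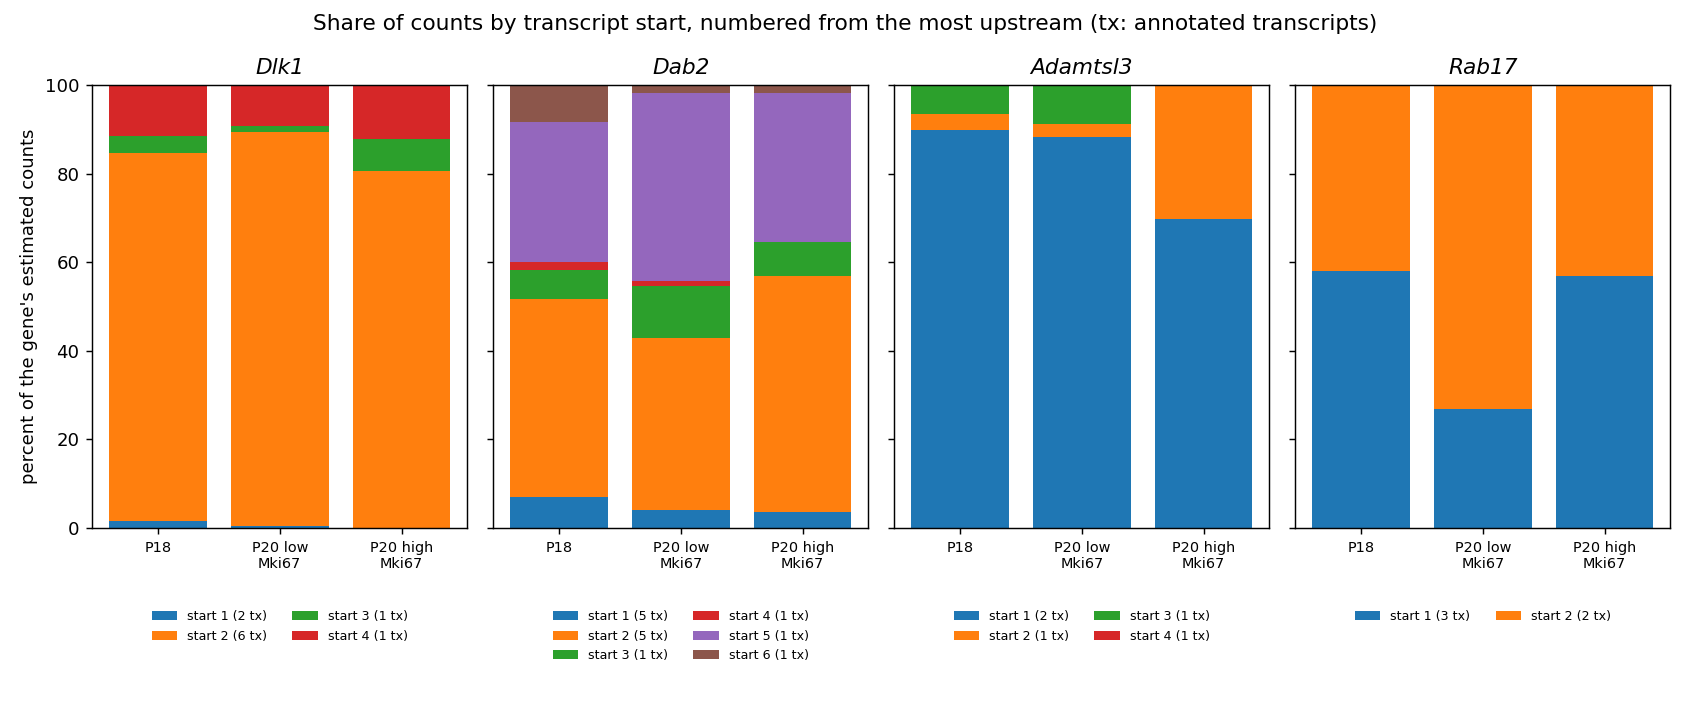
Percent of each gene's estimated counts by transcript start, numbered from the most upstream, in the P18, low-Mki67 P20 and high-Mki67 P20 libraries. Bars are pooled over libraries, without error. Most counts of Dlk1 and Adamtsl3 were assigned to 1 start, and the high-Mki67 bars of Rab17 rest on 89 counts and those of Adamtsl3 on 165.

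The other genes of each member's pathway were tested for the difference between low-Mki67 and high-Mki67 P20 libraries, over all genes tested, where 2.05% were higher and 1.88% lower with low Mki67. At P18 no gene of these lists passed for genotype. Of 11 other angiopoietin-like and angiopoietin genes, with their receptors, 1 was higher with low Mki67 and 0 were lower (median log2 difference -0.03, against 0.05 for all genes). This was Angptl2, a secreted relative of Angptl7, at 41.6 to 127 CPM in the low-Mki67 and 13.1 to 39.0 in the high-Mki67 libraries (1.70 ± 0.30, SE, edgeR adjusted p = 0.0012). Angptl4, another secreted relative, was at 30.6 to 123 and 20.8 to 59.9 CPM and did not pass (0.65 ± 0.39, adjusted p = 0.52). Nor did Angpt2, an angiopoietin gene, at 0.554 to 3.72 and 1.19 to 7.72 CPM (-2.02 ± 0.74, adjusted p = 0.16).

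Of 30 other Notch pathway genes 1 was higher with low Mki67 and 0 were lower, with a median of 0.45. The ligand gene Dll1 was at 48.9 to 55.4 CPM in the low-Mki67 and 7.55 to 23.9 in the high-Mki67 libraries (1.66 ± 0.34, edgeR adjusted p = 0.0045). The target Nrarp (1.18 ± 0.33, adjusted p = 0.051) and the modifying enzyme gene Lfng (0.89 ± 0.26, adjusted p = 0.068) did not pass. Nor did the receptor gene Notch4, at 1.46 to 2.54 and 0 to 4.30 CPM (adjusted p = 0.071). Rbpj, the paralog of Rbpjl, was at 94.4 to 146 and 74.0 to 115 CPM (0.27 ± 0.29, adjusted p = 0.83), and the Dlk1 paralog Dlk2 at 8.31 to 30.0 and 2.97 to 24.5 CPM (0.76 ± 0.47, adjusted p = 0.52). Both paralogs thus had ranges that overlapped between the libraries, and neither passed.

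Of 22 tested imprinted genes 3 were higher with low Mki67 and 0 were lower, with a median of 0.87. Cdkn1c, an inhibitor of cyclin-dependent kinases, was at 34.5 to 49.9 CPM in the low-Mki67 and 4.45 to 5.49 in the high-Mki67 libraries (3.13 ± 0.31, edgeR adjusted p = 1.3e-06). At P18 it was at 5.88 to 21.1 CPM, between the others. Peg10, a gene derived from a retroelement, was at 18 to 37.1 and 6.19 to 10.8 CPM (1.64 ± 0.35, adjusted p = 0.0069), but only at 1.14 to 5.92 at P18. Its adjusted p was 0.085 without P20 Irx5KO 2. The third, the transporter gene Slc22a18, was at 1.29 to 6.44 and 0 to 2.40 CPM, and missed the threshold without any 1 of 7 libraries (P18 Irx5KO 2 and P20 Irx5KO 1, 2 and 4 and WT 1, 3 and 4). On the later date its difference, Irx5KO minus WT, was -0.28, which is against the call. The call thus rests on the earlier date, with P20 Irx5KO 3 and 4, where fewer genes were detected.

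Of 22 ADAMTS-like and microfibril genes 2 were higher with low Mki67 and 2 lower, with a median of 0.00. Adamtsl4, a secreted relative of Adamtsl3, was at 200 to 332 CPM in the low-Mki67 and 40.4 to 80.3 in the high-Mki67 libraries (2.04 ± 0.32, edgeR adjusted p = 0.00031). Ltbp2, a matrix protein related to the fibrillins, was also higher (1.31 ± 0.35, adjusted p = 0.035), and the protease gene Adamts17 (-1.52 ± 0.35, adjusted p = 0.014) and the microfibril gene Mfap2 (-1.75 ± 0.43, adjusted p = 0.021) were lower. Each of these 3 missed the threshold without P20 Irx5KO 2 or without P20 WT 3. Adamts17 and Ltbp2 also missed it without P20 Irx5KO 4, and Ltbp2 and Mfap2 without P20 WT 4. Ltbp2 missed it without P20 Irx5KO 1 or P18 Irx5KO 3 too, and Mfap2 without P20 WT 1. Of 23 alternatives, Adamts17 missed it under 4 and Ltbp2 and Mfap2 under 6 each. For Adamts17 and Mfap2 some of these are not named here. Of 28 endosomal Rab genes 0 passed in either direction, with a median of 0.15 and Rab4b nearest (0.75 ± 0.35, adjusted p = 0.33).

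Among 20 bulge markers 2 were higher with low Mki67 (Fgf18 and Postn) and 2 lower (Sfrp1 and Npnt). Fgf18, a growth factor of the resting follicle, was at 14 to 85 CPM in the low-Mki67 and 1.83 to 6.35 in the high-Mki67 libraries (3.02 ± 0.49, edgeR adjusted p = 0.0019), and the Wnt inhibitor gene Sfrp1 was lower with low Mki67 (-1.56 ± 0.33, adjusted p = 0.0065). Postn, a matrix protein gene (1.59 ± 0.39, adjusted p = 0.019), missed the threshold without any 1 of P20 Irx5KO 1, 2 and 4 and WT 3 and 4. Sfrp1 and Npnt, another matrix protein gene (-1.70 ± 0.39, adjusted p = 0.012), missed it without P20 Irx5KO 2 or WT 3, and Fgf18 with voom and with a replicate block. Fgf18 and Npnt missed it without the 3 libraries with the highest TMM factors. Of 20 mitosis genes, with Mki67 itself among them, 19 were lower with low Mki67 (median -4.61), but the libraries are split by Mki67, so nothing is read from this count. Among markers of other cells, the macrophage gene Cd68 was higher with low Mki67 (8.25 to 16.5 against 2.23 to 5.45 CPM, 1.87 ± 0.38, adjusted p = 0.0050), but not without P20 WT 3 (1.58), with voom or with the P20 libraries alone. The sebaceous gland gene Scd3 was higher too, at 3.60 to 27.5 against 0.295 to 20 CPM (1.72 ± 0.36, adjusted p = 0.0059), but not without P20 Irx5KO 1 or with voom. For Scd3, Irx5KO minus WT was 0.23 on the later and -3.22 on the earlier date, so its call rests mostly on the earlier one. The melanocyte gene Dct was lower, at 3.19 to 5.90 against 10.7 to 14 CPM (-1.26 ± 0.35, adjusted p = 0.043), but not without any 1 of P18 Irx5KO 2 and 3, P20 Irx5KO 1 and 2 and P20 WT 1 to 4, with voom, with the P20 libraries alone or without the 3 libraries with the highest TMM factors. A difference above 0 was fitted for 5 of 8 tested macrophage and leukocyte, 4 of 7 sebaceous gland and 5 of 6 melanocyte markers. Dct thus went against the other melanocyte markers, none of which passed, and no share of cells is read from 1 gene. The sum of 10 macrophage and leukocyte markers was 26.7 to 109 CPM in the low-Mki67, 12.4 to 50.9 in the high-Mki67 and 33.3 to 92.7 in the P18 libraries, and that of 10 fibroblast markers 395 to 863, 669 to 892 and 682 to 1082. These ranges overlapped, no marker of either list was at 0 in every low-Mki67 or every high-Mki67 library, and the part of such cells in the members' values was not tested.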

How the data were processed

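Single-end total RNA libraries of sorted bulge cells were quantified with kallisto 0.46.2 on mm10, per the submitters' processing notes, which also name DESeq2. For each of 14 libraries the authors deposited estimated counts and TPM per transcript, per the file headers. The labels' protocols describe a sort for CD34 and against Ly-6A/E. Of 118489 transcripts, 116816 matched a GENCODE vM21 gene, and the others (1.19% to 2.59% of counts) were left out. Here estimated counts were summed per gene and rounded. edgeR 4.0.16 (R 4.3.3; TMM, default expression filter by age and genotype, robust quasi-likelihood test) was fitted to all libraries with 1 coefficient per date and genotype. The filter kept 24592 of 34049 genes. P-values were adjusted over these genes by the Benjamini-Hochberg method, with a threshold of 0.05. The SE is the log2 difference over the square root of F. CPM uses TMM library sizes, and the correlations a pseudocount of 0.1 CPM. The fit and its contrasts were tested on simulated counts.

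The members and gene lists were chosen with earlier results of these data known. The result of 1 gene list is not reported here. The text names the members, Mki67 and Irx5, for each member the 3 genes nearest in pattern, its overlapping genes and nearest neighbours, up to 4 genes per pathway list with the smallest p with relatives whose role is stated, and up to 3 abundant genes per list of other cells. Markers of the bulge and of other cells were named because they passed or define the sort, and Ddx3y, Gm8226 and Dscaml1 after their values were seen. P20 low-Mki67 and high-Mki67 libraries coincide with date and labelled genotype, and since the rule used that difference, p-values of members between them are not given. Other settings were RLE factors, TMM over genes with at least 8 CPM, no filter, a filter of 1 CPM in 3 libraries, DESeq2 1.42.0, voom in limma 3.58.1, a replicate block, an additive date term, each age alone and leaving out each library. Totals of 13618367 to 70083873 counts limit precision for Adamtsl3 and Rab17, with 0 to 370 and 0 to 539 counts per library.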

Additional observations from a re-analysis of the deposited data

Results flagged for a closer look

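At P20 the difference between the libraries labelled Irx5KO and WT was above 0 on the later date and below 0 on the earlier date for all 6 members. On the later date it was 2.95 for Angptl7, 2.49 for Dlk1, 2.19 for Dab2, 2.68 for Rbpjl, 1.59 for Adamtsl3 and 2.31 for Rab17 (log2). The members were chosen on this turn, so it was not tested for them, and Irx5 and Mki67 turn with the date as well.

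At P18 every Irx5KO library of the earlier date lay above, and every one of the later date below, the WT libraries of its date for 4 members. The share of all genes with this order was not counted, so nothing is read from the 4. On the earlier date the difference was 1.33 for Angptl7, 1.16 for Dlk1, 0.61 for Dab2 and 0.97 for Rab17 (log2). The test of the difference between the dates, added after the values were seen, gave an edgeR adjusted p of 0.87 for each of them. Genes at 8 CPM or more had a median difference of 0.71 on the earlier and 0.04 on the later date. Each date has a single library of 1 genotype, and the library labelled WT on the later date also carries the word het.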

How the results depend on the processing

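None of the 6 members passed between genotypes at P18 under any of 24 alternatives. The small differences there changed sign for Angptl7 with TMM over well expressed genes (-0.01), without the 3 libraries with the highest TMM factors, an alternative added after seeing the data (-0.74), and without P18 Irx5KO 1 (-0.70) or Irx5KO 2 (-0.03). They changed sign for Adamtsl3 with TMM over well expressed genes (0.00), without P18 WT 3 (-0.57) or Irx5KO 2 (-0.71) and with a replicate block (-0.26). On leaving out 1 library they ran from -0.70 to 0.82 for Angptl7 and -0.71 to 0.73 for Adamtsl3. They ran from -1.91 (without Irx5KO 1) to 0.61 (without WT 3) for Dlk1, from -0.80 to 0.09 for Dab2 and from -1.13 to 0.46 for Rab17, at the same libraries. Without Irx5KO 1, or without the 3 libraries with the highest TMM factors, only the later P18 date kept both genotypes. Without WT 3 only the earlier one did. These alternatives are thus differences on a single date and not the mean of both. The correlation with Mki67 at P18 changed sign at raw library sizes for Dab2 (0.04), Rbpjl (0.32) and Adamtsl3 (0.36), and in TPM for Rbpjl (0.33), Adamtsl3 (0.51) and Rab17 (0.11). The causes were not tested.

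Over all genes, the 2 called at P18 became 1 with RLE factors, TMM over well expressed genes or the 1 CPM filter, 683 with no filter, 33 with DESeq2, 0 with voom, an additive date term or P18 alone, and 4 without the 3 libraries of highest TMM factors. Leaving out 1 library gave 1 to 891, the latter without P18 WT 1. The 965 called between low-Mki67 and high-Mki67 P20 libraries became 2021 with no filter, 2404 with DESeq2, 1516 without the 3 libraries, and 510 (without P20 WT 3) to 1742 (without P18 WT 1) on leaving out 1. Angptl2, Dll1, Cdkn1c and Adamtsl4 passed under all 23 alternatives. The labels give no shared source for a replicate number, and deviations of same-numbered libraries correlated at 0.06 to 0.14 at P18 and 0.01 to 0.39 at P20, not above 0.1 for every pair, so the numbers were not used as pairs. Of the libraries, 6 of 6 at P18 and 5 of 8 at P20 correlated best with that of their own number, a hint from the data and not the design. A replicate block gave 40 and 1219 calls. All 6 members had a difference above 0 between low-Mki67 and high-Mki67 P20 libraries under all 23 alternatives, as their choice fixes.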
